A study of Homo sapiens with 24 samples.

Results

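The genes described here are 34 listed genes of glucose transport, glycolysis and the hypoxia response, out of 44825 genes with reads in HCT116 cells, a human colorectal cancer line. They were chosen by name: 2 glucose transporters, 15 glycolytic enzymes, 2 regulators of phosphofructokinase, 2 genes of pyruvate and lactate fate, 9 targets of hypoxia-inducible factor (HIF) outside glycolysis and 4 genes of oxygen sensing. All 34 passed the filter on low counts that left 24153 genes to test. RNA was sequenced from 24 libraries, 3 in each of 8 groups. Without transfection there were TNRC6AB-/- cells, which lack both TNRC6A and TNRC6B, TNRC6A-/- cells, TNRC6B-/- cells and wild-type (WT) cells. With lipid transfection there were TNRC6AB-/- cells given a pool of duplex RNAs against TNRC6C (siTNRC6C), TNRC6AB-/- cells given the control duplex siGL2, WT cells given siTNRC6C and WT cells given siGL2. All cells carried the HCT116 background and grew in the same serum-supplemented medium. TNRC6A was knocked out by a frameshifting point mutation and TNRC6B by a large deletion, and each genotype is represented by 1 cell line, so line and genotype cannot be told apart. TNRC6AB-/- cells were seeded for transfection at a higher number than WT cells per the study's methods. Nothing in the labels says that the 3 libraries of a group came from separate cultures, and p-values measure the spread between these libraries only.

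Cells take up glucose through carriers of the GLUT family. SLC2A1 encodes GLUT1, the carrier found in most tissues, and SLC2A3 encodes GLUT3, a high-affinity carrier best known from neurons. Inside the cell glucose is split by the glycolytic enzymes into pyruvate, which is turned into lactate or sent to mitochondria. When oxygen is low, prolyl hydroxylases stop marking the HIF alpha subunits for destruction, and HIF binds short elements near its target genes, which include most glycolytic enzymes and both carriers. TNRC6 proteins bind Argonaute proteins and recruit the enzymes that shorten poly(A) tails, which is how miRNAs lower the mRNAs they pair with.

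Library depth ran from 28144290 to 42689320 estimated reads. The labels held for TNRC6C, which lay at 18.7 to 20.7 CPM (counts scaled to a common library size) in TNRC6AB-/- siTNRC6C cells and 20.6 to 21.4 CPM in WT siTNRC6C cells, against 113 to 127 CPM in TNRC6AB-/- siGL2 cells and 49.5 to 58.0 CPM in WT siGL2 cells. TNRC6A lay at 45.9 to 80.1 CPM in cells with a TNRC6A mutation, against 95.3 to 156.5 CPM in the others. TNRC6B lay at 74.9 to 126.2 CPM in cells with a TNRC6B deletion, against 184.3 to 314.8 CPM in the others. Summed over 6 epithelial markers of this line, libraries held between 1146 and 2681 CPM. The summed level of 8 markers of blood, endothelial and connective tissue cells was 65.5 to 105.5 CPM in TNRC6AB-/- cells, against 33.3 to 41.6 CPM in WT cells, and without its collagen genes 11.2 to 14.2 CPM against 9.92 to 13.8 CPM. After transfection it was 66.5 to 70.1 CPM with siTNRC6C and 47.3 to 51.1 CPM with siGL2 in TNRC6AB-/- cells, against 30.7 to 33.8 CPM in WT siGL2 cells. One of these, COL3A1, lay at 14.5, 49.2 and 60.4 CPM in TNRC6AB-/- cells and at most 0.0941 CPM in WT cells, and HBB stayed at or near 0 throughout. The part of these markers in the results below was not tested. In bulk RNA, fewer cells of a kind and less RNA per cell cannot be told apart.

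One library stands apart for these genes. In WT replicate 3 of the untransfected cells, 30 of the 34 members were higher than in WT replicates 1 and 2, and 25 of them by more than 1.5 times the next library. LDHA, for example, had 1263 CPM in WT replicate 3, and 553 and 316 CPM in WT replicates 1 and 2. Likewise BNIP3 had 96.3 CPM there, and 21.7 and 18.5 CPM in the other WT libraries. VEGFA went against this pattern with 70.0 CPM in WT replicate 3, and 81.8 and 201.6 CPM in replicates 1 and 2. In TNRC6AB-/- replicate 3, 32 of 34 members had the highest CPM of their group. The spread within that group depends on the scale. On the deposited length-scaled abundances (TPM), ENO1 had 478 ± 8.89 in TNRC6AB-/- cells, against 991 ± 214 CPM. ALDOA had 361 ± 12.2 TPM and 427 ± 102 CPM, while HIF1A had 82.1 ± 22.1 TPM and 277 ± 13.1 CPM (SD, n = 3 each). Comparisons with untransfected WT cells are therefore also given without WT replicate 3. Replicates were tighter in transfected cells: the biological coefficient of variation had a median over genes of 0.0827 there and of 0.204 in untransfected cells.

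**Figure D1:**
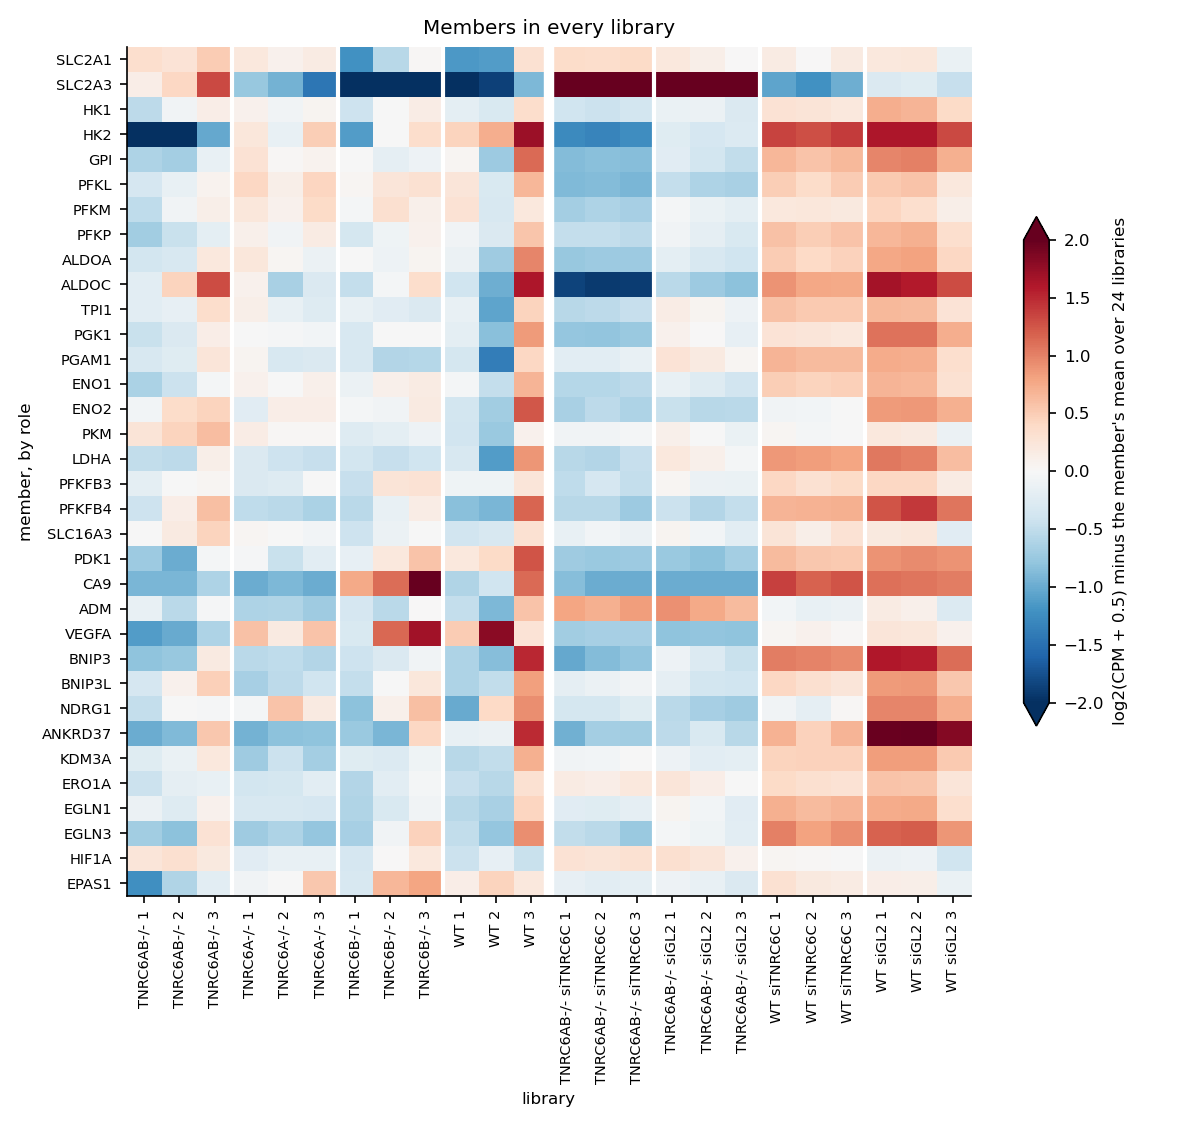
Level of each member in each of the 24 libraries as log2(CPM + 0.5) minus that member's mean over all libraries (colour, limited to -2 and 2), with members in rows by role and untransfected groups to the left of the wide gap. WT replicate 3 is warm in most rows, with 30 of 34 members above the other WT libraries, and SLC2A3 is dark red in all 6 transfected TNRC6AB-/- libraries.

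Sequences of the gene with the largest rise are shown first, since TNRC6 proteins act through sites in 3' untranslated regions. The major SLC2A3 transcript, SLC2A3-201 on chromosome 12 (GRCh38, minus strand), has a 3' untranslated region of 2183 bases. It was searched, on the transcript strand, for the 7 letters that pair with bases 2 to 8 of 12 listed miRNAs. These letters are CTACCTC for let-7a-5p, TGCTGCT for miR-16-5p, GCACTTT for miR-17-5p, TTTGCAC for miR-19a-3p, ATAAGCT for miR-21-5p, TACTTGA for miR-26a-5p, TGGTGCT for miR-29a-3p, TGTTTAC for miR-30a-5p, GTGCAAT for miR-92a-3p, ATGCTGC for miR-103a-3p, CAGTGTT for miR-141-3p and CAGTATT for miR-200b-3p. SLC2A3 held 7 matches, each to a different miRNA, those for miR-103a-3p and miR-16-5p overlapping and the first of them starting 1 base earlier. Of these, 5 are shown, with the matched letters in capitals and flanking bases of the transcript in lower case.
miR-16-5p match, chr12:7921306-7921331: caggacgcttctgaaTGCTGCTactt
miR-92a-3p match, chr12:7920700-7920725: gctggagaggttaagGTGCAATaaga
miR-26a-5p match, chr12:7920496-7920521: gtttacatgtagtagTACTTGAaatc
miR-29a-3p match, chr12:7919818-7919843: ctccctttcccttctTGGTGCTtaca
miR-200b-3p match, chr12:7919772-7919797: aacccttgtcagtgaCAGTATTttgg

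Of 14536 genes with a 3' untranslated region of at least 50 bases, 7.68% held 7 or more such matches. Per kilobase, SLC2A3 had 3.21 matches, the 34 members a median of 1.20 and all genes a median of 0.92. PFKM (5.05), PFKP (4.48), ANKRD37 (4.46), SLC16A3 (3.98) and PGAM1 (3.27) had more per kilobase than SLC2A3. All of these but SLC16A3 fell in transfected TNRC6AB-/- cells against WT siGL2, so the density of matches did not set SLC2A3 apart. SLC2A1 held 2 matches in 1666 bases and LDHA 1 in 566 bases. HIF1A held 1 match in 1173 bases, and 9 members, among them HK1, ENO1 and PDK1, held none. miRNA levels were not measured here, and a match is a description of letters, not of a bound site.

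Promoters of members that moved together are shown for the core of the hypoxia response element. RefSeq windows (GRCh38.p14) of 250 bases before to 50 after a start site were searched on both strands for ACGTG and GCGTG. Of the members, 30 had an entry, with 58 windows, and SLC2A3, VEGFA, BNIP3L and NDRG1 are named only. ACGTG was in 22 of the 58 windows (37.9%), against 21.4% of all 35116 windows, and GCGTG in 25 of them (43.1%), against 36.5%. A CACGTG hexamer holds ACGTG on both strands and counts as 2 matches. SLC2A1, PKM, ADM and HIF1A windows held GCGTG but not ACGTG. The same was true of HK1, ENO1, PFKL, PFKFB4, KDM3A and EPAS1, which fell in transfected TNRC6AB-/- cells against WT siGL2. EGLN3 and PGAM1, which fell too, held neither core, and SLC16A3, not called there, held both. ACGTG thus did not separate members that fell from the others. In the stretches below capitals mark ACGTG in either direction, and each reads along the strand of its gene.
LDHA, chr11:18394360-18394410, plus strand: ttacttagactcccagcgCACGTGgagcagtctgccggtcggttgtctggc
PGK1, chrX:78104028-78104078, plus strand: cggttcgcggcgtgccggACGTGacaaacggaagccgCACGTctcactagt
ALDOC, chr17:28577095-28577145, minus strand: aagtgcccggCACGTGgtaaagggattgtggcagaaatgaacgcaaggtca
BNIP3, chr10:131982025-131982075, minus strand: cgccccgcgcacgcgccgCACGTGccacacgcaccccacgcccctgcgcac
ANKRD37, chr4:185396661-185396711, plus strand: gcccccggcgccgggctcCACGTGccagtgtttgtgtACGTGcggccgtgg
CA9, chr9:35673892-35673942, plus strand: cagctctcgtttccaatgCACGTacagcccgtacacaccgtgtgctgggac

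More members were called between transfected TNRC6AB-/- and WT cells than between untransfected ones. SLC2A3 rose by 4.43 on the log2 scale in TNRC6AB-/- siTNRC6C cells against WT siGL2 cells, while 14 of 15 glycolytic enzymes and 8 of 9 HIF targets outside glycolysis fell. In that comparison 4 members rose and 28 fell at a Benjamini-Hochberg adjusted p below 0.05 in edgeR, and among all genes tested 24.7% rose and 31.8% fell. In TNRC6AB-/- siGL2 cells against WT siGL2 cells 3 members rose and 28 fell, where 15.7% of all genes rose and 20.6% fell. The median log2 fold change of the 34 members was -1.06 in the first comparison and -0.87 in the second, against medians of 0.008 and -0.004 over all genes tested. These comparisons and the one of WT siTNRC6C cells share the WT siGL2 libraries, as those of untransfected knockouts share the WT libraries, so their values stand side by side and agreement between them is no separate evidence.

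The scale changes the size of these differences. On the length-scaled transcript abundances (TPM) as deposited, the median of all genes shifted by 0.30 in TNRC6AB-/- siTNRC6C cells and by 0.19 in TNRC6AB-/- siGL2 cells, both against WT siGL2, on the log2 scale. The median of the 34 members was then -0.43 and -0.44. PFKFB4, for example, had -0.87 and -1.05 on that scale. With limma on that scale 8 members rose and 24 fell in the first comparison, where 14147 of 24153 genes tested rose and 2313 fell. In the second 6 members rose and 22 fell, where 9232 of all genes tested rose and 1521 fell. The sign of PKM, SLC16A3, ERO1A and EPAS1 turned from down to up on the TPM scale in both comparisons, as did KDM3A in the first and PFKFB3 in the second. SLC2A3, ADM and HIF1A rose, and HK2, ALDOC, PGK1, LDHA, BNIP3 and ANKRD37 fell, on both scales.

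**Figure D2:**
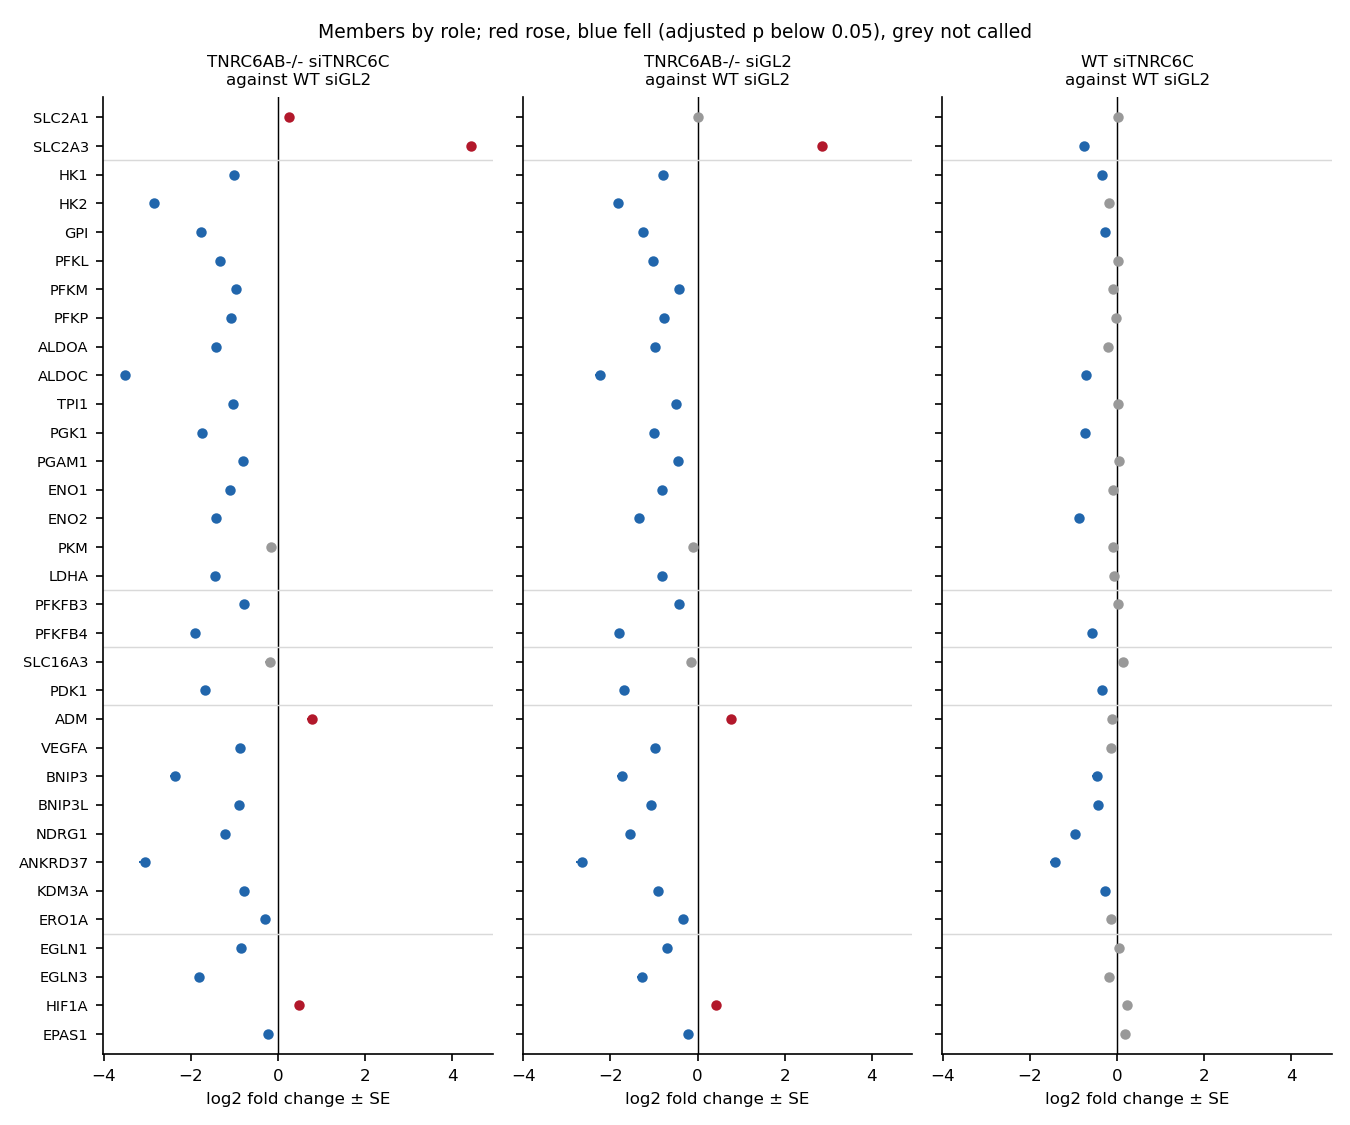
Log2 fold change with its standard error from edgeR (horizontal axis) for 33 members in rows by role, in TNRC6AB-/- siTNRC6C, TNRC6AB-/- siGL2 and WT siTNRC6C cells, each against WT siGL2 cells. CA9 is left out because its counts in TNRC6AB-/- cells are at or near 0. SLC2A3 stands alone on the right at 4.43 and 2.87 in the double knockout cells and lies at -0.76 in WT siTNRC6C cells, while most enzymes and HIF targets lie left of 0 in the double knockout cells.

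SLC2A3 (chr12:7919230-7936275) reached 891, 877 and 939 CPM in TNRC6AB-/- siTNRC6C cells and 330, 302 and 283 CPM in TNRC6AB-/- siGL2 cells, against 43, 44.4 and 38.0 CPM in WT siGL2 cells. No library of the knockout groups came near a WT library. Its log2 fold change over WT siGL2 was 4.43 ± 0.093 (SE) in TNRC6AB-/- siTNRC6C cells and 2.87 ± 0.087 in TNRC6AB-/- siGL2 cells, with edgeR adjusted p of 2.4e-16 and 7.3e-14. In WT siTNRC6C cells it went the other way, with 25.1, 22.5 and 26.5 CPM, and fell by 0.76 ± 0.086 on the log2 scale against WT siGL2 (adjusted p = 1.8e-05). The deposited TPM, which allow for length, gave 262 ± 15.4 in TNRC6AB-/- siTNRC6C, 79.7 ± 4.22 in TNRC6AB-/- siGL2, 5.42 ± 1.05 in WT siTNRC6C and 9.13 ± 1.13 in WT siGL2 cells (SD, n = 3 each). SLC2A14, a close paralog whose reads could be confused with those of SLC2A3, stayed between 1.80 and 1.97 CPM in TNRC6AB-/- siTNRC6C cells and at most 0.725 CPM in every other group.

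SLC2A1 (chr1:42925375-42959176) moved far less. It had 356.5, 353 and 363 CPM in TNRC6AB-/- siTNRC6C cells and 320.0, 301 and 278 CPM in TNRC6AB-/- siGL2 cells, against 321, 325 and 252 CPM in WT siGL2 cells. The TNRC6AB-/- siTNRC6C libraries were the higher ones, with a log2 fold change of 0.26 ± 0.089 (edgeR adjusted p = 0.021), a call that was lost in 4 of 16 alternatives, with adjusted p of up to 0.466 among all 16. In TNRC6AB-/- siGL2 cells the change was 0.00 ± 0.089 and the groups overlapped. On the deposited TPM scale SLC2A1 differed by 0.89 and 0.42 on the log2 scale in these comparisons, both called by limma, where the median of all genes was itself shifted upward.

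**Figure D3:**
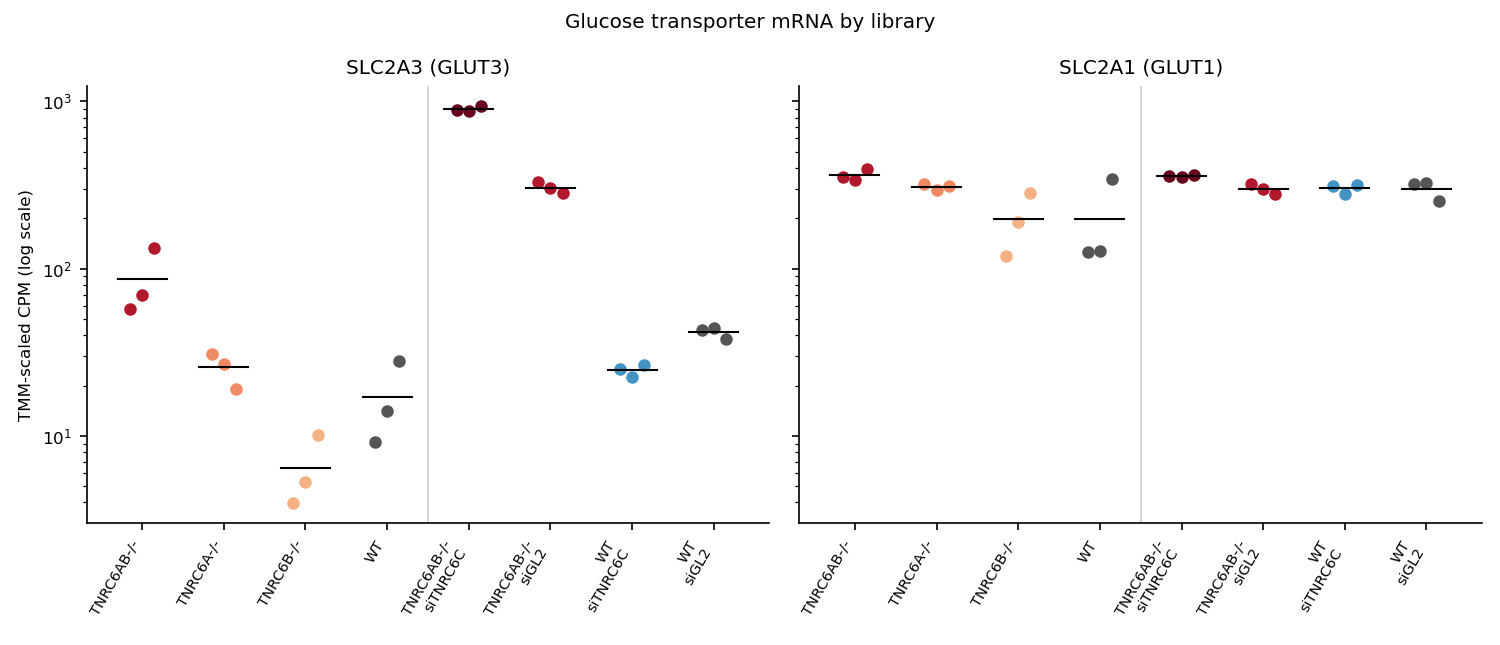
CPM of SLC2A3 (left) and SLC2A1 (right) on a log axis in each library (points) with the group mean (line), untransfected groups left of the grey line. SLC2A3 means run from 6.43 CPM in TNRC6B-/- cells to 902 CPM in TNRC6AB-/- siTNRC6C cells, while every SLC2A1 library lies between 119.5 and 396 CPM.

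Over the 8 groups the order of SLC2A3 was TNRC6AB-/- siTNRC6C (902 ± 32.3 CPM), TNRC6AB-/- siGL2 (305 ± 23.7), TNRC6AB-/- (86.7 ± 40.1), WT siGL2 (41.8 ± 3.37), TNRC6A-/- (25.7 ± 6.07), WT siTNRC6C (24.7 ± 2.05), WT (17.1 ± 9.82) and TNRC6B-/- (6.43 ± 3.22) (SD, n = 3 each). The first 4 groups did not overlap with each other, and TNRC6A-/-, WT siTNRC6C and WT overlapped among themselves. SLC2A1 had its lowest levels in replicates 1 and 2 of TNRC6B-/- and of WT cells, between 119.5 and 189.5 CPM, and every other library had at least 252 CPM.

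Among the glycolytic enzymes, HK2, the hexokinase most often induced in tumours, and ALDOC, an aldolase best known from brain, fell the most. HK2 had 18.1, 17.5 and 18.7 CPM in TNRC6AB-/- siTNRC6C cells and 37.8, 35.2 and 37.0 CPM in TNRC6AB-/- siGL2 cells, against 137, 138 and 112.5 CPM in WT siGL2 cells, with log2 fold changes of -2.84 ± 0.082 and -1.82 ± 0.078. ALDOC had 7.41, 7.05 and 7.13 CPM in TNRC6AB-/- siTNRC6C cells and 19.0, 16.7 and 15.6 CPM in TNRC6AB-/- siGL2 cells, against 89.6, 85.2 and 69.5 CPM in WT siGL2 cells, with log2 fold changes of -3.50 ± 0.102 and -2.25 ± 0.0941. In both genes the groups were far apart and the cells with siTNRC6C lay below those with siGL2. HK1, the housekeeping hexokinase, fell by 1.01 and 0.79 on the log2 scale in the 2 comparisons with WT siGL2.

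The abundant enzymes of the middle and end of the pathway fell by less. PGK1, which makes the first ATP of glycolysis, had 223, 220.3 and 229 CPM in TNRC6AB-/- siTNRC6C cells and 404.5, 386 and 340.2 CPM in TNRC6AB-/- siGL2 cells, against 814.5, 811 and 632 CPM in WT siGL2 cells (log2 fold changes of -1.75 and -0.998). LDHA, which turns pyruvate into lactate, had 470.0, 456.5 and 498.5 CPM in TNRC6AB-/- siTNRC6C cells and 794.5, 735.5 and 666 CPM in TNRC6AB-/- siGL2 cells, against 1423, 1379 and 1060 CPM in WT siGL2 cells (log2 fold changes of -1.44 and -0.81). Enolase ENO1 averaged 863 ± 17.7, 1056 ± 88.9 and 1861 ± 257 CPM in TNRC6AB-/- siTNRC6C, TNRC6AB-/- siGL2 and WT siGL2 cells (SD, n = 3 each). GPI, which isomerises glucose 6-phosphate, the phosphofructokinases PFKL, PFKM and PFKP, aldolase ALDOA, TPI1, the mutase PGAM1 and the neuronal enolase ENO2 all passed the test as well. The 14 enzymes that fell ranged from -3.50 to -0.80 in TNRC6AB-/- siTNRC6C cells and from -2.25 to -0.43 in TNRC6AB-/- siGL2 cells, and in none did the groups overlap. The share of all genes tested without overlap was not counted. In both comparisons the groups did not overlap in any of the 9 HIF targets outside glycolysis either, so a lack of overlap was not particular to the enzymes.

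PKM, the last step to pyruvate, was the 1 enzyme not called. It had 1364, 1357 and 1395 CPM in TNRC6AB-/- siTNRC6C cells and 1535, 1427 and 1297 CPM in TNRC6AB-/- siGL2 cells, against 1660, 1626 and 1318 CPM in WT siGL2 cells, and the groups overlapped. The log2 fold changes were -0.16 ± 0.089 and -0.11 ± 0.089, with edgeR adjusted p of 0.13 and 0.36. On the deposited TPM scale PKM instead read 717 ± 20.2 and 633 ± 8.94 TPM in the knockout groups with siTNRC6C and siGL2, against 503 ± 17.6 TPM in WT siGL2 cells (SD, n = 3 each).

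The contrast between carriers and enzymes was taken per library as the mean log2 CPM of SLC2A1 and SLC2A3 minus the mean log2 CPM of the 15 enzymes. This value lay between 2.13 and 2.18 in TNRC6AB-/- siTNRC6C libraries and between 0.755 and 0.76 in TNRC6AB-/- siGL2 libraries, against -1.67 to -1.60 in WT siGL2 libraries. The differences from WT siGL2 were 3.78 and 2.39, where the replicate SDs were 0.03 and 0.025. In untransfected cells the value was -0.10 to -0.01 in TNRC6AB-/- and -2.51 to -1.68 in WT libraries, a difference of 1.98 with a replicate SD of 0.31. The groups are apart in each case, and no test was made on this score. Most of it came from SLC2A3: against WT siGL2, SLC2A3 minus the enzymes differed by 5.87 and 3.82, and SLC2A1 minus the enzymes by 1.70 and 0.96. The mean log2 CPM of the enzymes was 6.995 ± 0.015 in TNRC6AB-/- siTNRC6C, 7.48 ± 0.10 in TNRC6AB-/- siGL2, 8.19 ± 0.03 in WT siTNRC6C and 8.43 ± 0.19 in WT siGL2 cells (SD, n = 3 each). Without transfection it was 7.46 ± 0.35 in TNRC6AB-/- and 7.72 ± 0.71 in WT cells. The enzyme mean was thus close in TNRC6AB-/- cells with and without siGL2. It was higher on average in WT siGL2 than in WT cells, but the libraries overlapped. WT replicate 3 had 8.49 and WT siGL2 replicate 3 had 8.21. On the TPM scale PGK1 averaged 237 and HK2 14.6 in WT siGL2 cells, against 179 and 15.5 in WT cells.

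**Figure D4:**
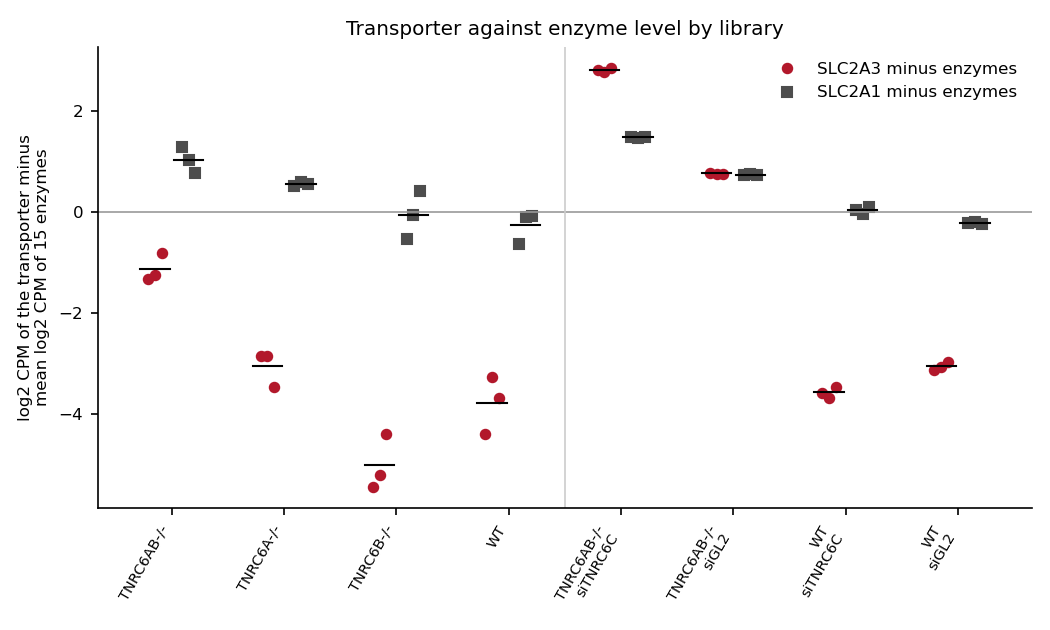
Log2 CPM of SLC2A3 (circles) and of SLC2A1 (squares) minus the mean log2 CPM of 15 glycolytic enzymes in each library, with group means as lines and untransfected groups left of the grey line. Between TNRC6AB-/- siTNRC6C and WT siGL2 cells the value of SLC2A3 differs by 5.87 and that of SLC2A1 by 1.70, and the heights of the genes themselves are not compared since CPM are not per length.

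Both regulators of phosphofructokinase fell. PFKFB4, an isoform known as a HIF target, had 13.8, 13.8 and 12.2 CPM in TNRC6AB-/- siTNRC6C cells and 15.1, 13.5 and 14.6 CPM in TNRC6AB-/- siGL2 cells, against 50.1, 55.5 and 43.9 CPM in WT siGL2 cells, with log2 fold changes of -1.91 and -1.79. PFKFB3 fell by 0.79 and 0.41 on the log2 scale. Of the genes of pyruvate fate, PDK1, which holds pyruvate back from mitochondria, had 16.5, 16.2 and 16.3 CPM in TNRC6AB-/- siTNRC6C cells and 16.2, 15.2 and 17.0 CPM in TNRC6AB-/- siGL2 cells, against 51.5, 53.2 and 51.5 CPM in WT siGL2 cells. Here both knockout groups lay far below WT and overlapped with each other, with log2 fold changes of -1.67 and -1.69. The lactate exporter SLC16A3 was not called, with -0.19 and -0.15.

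ADM, which encodes the vasodilator adrenomedullin, was the 1 HIF target outside glycolysis that rose. It had 60.1, 57.0 and 62.6 CPM in TNRC6AB-/- siTNRC6C cells and 65.8, 59.0 and 54.0 CPM in TNRC6AB-/- siGL2 cells, against 38.9, 37.5 and 28.8 CPM in WT siGL2 cells. Its log2 fold change was 0.77 in both comparisons, with edgeR adjusted p of 2.2e-06 and 5.2e-06. ANKRD37, a small ankyrin repeat gene, fell the most among those with more than a few reads, to 1.32, 1.73 and 1.69 CPM in TNRC6AB-/- siTNRC6C cells and 1.97, 2.38 and 1.91 CPM in TNRC6AB-/- siGL2 cells, against 13.5, 14.1 and 12.2 CPM in WT siGL2 cells. BNIP3, a mitophagy receptor, had 16.3, 18.2 and 19.2 CPM in TNRC6AB-/- siTNRC6C cells and 31.4, 27.6 and 24.7 CPM in TNRC6AB-/- siGL2 cells, against 103, 101 and 73.6 CPM in WT siGL2 cells. The log2 fold changes were -3.06 and -2.66 for ANKRD37 and -2.37 and -1.73 for BNIP3.

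VEGFA, the angiogenic growth factor, had 35.2, 36.0 and 36.2 CPM in TNRC6AB-/- siTNRC6C cells and 32.9, 33.3 and 32.9 CPM in TNRC6AB-/- siGL2 cells, against 68.1, 67.1 and 60.9 CPM in WT siGL2 cells. It fell by 0.87 and 0.99 on the log2 scale, and the growth-arrest gene NDRG1 by 1.22 and 1.54. The mitophagy receptor BNIP3L, the histone demethylase KDM3A and the oxidoreductase ERO1A fell by 0.295 to 1.08 on the log2 scale. CA9, carbonic anhydrase IX, is a gene with few reads in this line, with 171 reads over the 3 WT siGL2 libraries (1.65, 1.60 and 1.53 CPM). No read was seen in TNRC6AB-/- siGL2 cells, at least 19.7-fold lower at a floor of 3 reads per library, and 2 reads were seen in TNRC6AB-/- siTNRC6C cells, 102-fold lower (95% exact interval of counting error, 27.8 to 849). With CA9 at that bound the median of the 9 genes stays at -1.08 in TNRC6AB-/- siGL2 cells.

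Of the oxygen-sensing genes HIF1A, the HIF1 alpha subunit, rose and the other 3 fell. HIF1A had 282, 277 and 287 CPM in TNRC6AB-/- siTNRC6C cells and 290.4, 275 and 245 CPM in TNRC6AB-/- siGL2 cells, against 214, 216 and 175 CPM in WT siGL2 cells. Every knockout library was above every WT siGL2 library, and HIF1A mRNA rose by 0.48 ± 0.082 and 0.42 ± 0.082 on the log2 scale (edgeR adjusted p = 6.7e-05 and 0.00048). The prolyl hydroxylases EGLN1 and EGLN3, both themselves HIF targets, fell by 0.85 and 1.80 in TNRC6AB-/- siTNRC6C cells and by 0.70 and 1.28 in TNRC6AB-/- siGL2 cells. EPAS1, the HIF2 alpha subunit, had 35.1, 33.9 and 34.4 CPM in TNRC6AB-/- siTNRC6C cells and 36.7, 35.2 and 32.0 CPM in TNRC6AB-/- siGL2 cells, against 42.9, 42.4 and 35.7 CPM in WT siGL2 cells, a fall of 0.23 and 0.22 that did not keep its sign on the TPM scale, where EPAS1 and ERO1A were called as rises of 0.37 and 0.28 in TNRC6AB-/- siTNRC6C cells. HIF protein was not measured here.

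Lowering TNRC6C in double knockout cells moved carriers and enzymes further apart. In TNRC6AB-/- siTNRC6C cells against TNRC6AB-/- siGL2 cells 3 members rose and 16 fell, where 9.44% of all genes rose and 18.9% fell. SLC2A3 rose by 1.57 ± 0.081, and SLC2A1 by 0.25 ± 0.089, a call lost in 7 of 16 alternatives. Enzymes made up 13 of the 16 falls, led by ALDOC (-1.25), HK2 (-1.02), PGK1 (-0.75) and LDHA (-0.62). HIF targets outside glycolysis did otherwise: 1 of 9 fell, BNIP3 with -0.64, 1 rose, NDRG1 with 0.32, and ADM (0.01), VEGFA (0.12) and KDM3A (0.13) were not called. With library totals in place of TMM the split was 8 up and 16 down, where 3828 of all genes tested rose and 4091 fell. On the TPM scale it was 11 up and 11 down, where 4352 of all genes tested rose and 1529 fell. In a fit of all 24 libraries only SLC2A3 and PFKM were called, with ALDOC at an adjusted p of 0.0926.

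In WT cells siTNRC6C lowered 13 members and raised none, where 6.43% of all genes rose and 5.89% fell against WT siGL2. ANKRD37 fell the most, with 5.26, 4.39 and 5.18 CPM in WT siTNRC6C cells against 13.5, 14.1 and 12.2 CPM in WT siGL2 cells, a log2 fold change of -1.42 ± 0.11. NDRG1 had 215, 199 and 229 CPM in WT siTNRC6C cells against 444, 445 and 371 CPM in WT siGL2 cells (-0.97 ± 0.082), and ENO2 45.8, 46.1 and 47.6 CPM against 87.1, 87.9 and 79.5 CPM (-0.87 ± 0.065). The groups are apart in each of these genes. PGK1 had 462, 454.5 and 444 CPM in WT siTNRC6C cells, below all 3 WT siGL2 libraries. SLC2A3 (-0.76), PGK1 (-0.73), ALDOC (-0.72), PFKFB4, BNIP3, BNIP3L, HK1, PDK1, KDM3A and GPI make up the rest. Of the enzymes 5 of 15 fell, and LDHA (-0.07, 1191 to 1249 CPM in WT siTNRC6C cells), ENO1 (-0.09), TPI1 (0.02) and PGAM1 (0.04) were not called. Without WT siGL2 replicate 3, whose CPM lie below those of its partners in most members, 23 members fell, among them all 13. Of all genes tested, 1534 then rose and 2431 fell. In a fit of all 24 libraries no member was called, where 96 of all genes tested rose and 129 fell. On the TPM scale 2 rose, SLC16A3 and HIF1A, and 13 fell, where 2018 of all genes tested rose and 615 fell.

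The effect of siTNRC6C differed between genotypes in 16 members, 9 with a more positive and 7 with a more negative change in TNRC6AB-/- cells, where 6.35% and 15% of all genes did so. SLC2A3 led with a difference of 2.33 ± 0.12 on the log2 scale (edgeR adjusted p = 1.6e-09), having risen in TNRC6AB-/- cells and fallen in WT cells. NDRG1 (1.29), ANKRD37 (1.02), ENO2 (0.78) and BNIP3L (0.63) were also more positive, all 4 having fallen in WT cells. HK2 (-0.84), TPI1 (-0.56), LDHA (-0.55) and ALDOC (-0.53) were more negative in TNRC6AB-/- cells. Library totals gave 14 more positive and 9 more negative members, where 2989 and 3683 of all genes tested did so. The TPM scale gave 13 and 6, where 1656 and 1708 of all genes tested did so. With all 24 libraries in 1 fit, only SLC2A3 was called.

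Without transfection few members were called in the single knockouts. The mean log2 CPM of the enzymes had an SD of 0.101 in TNRC6A-/-, 0.144 in TNRC6B-/- and 0.712 in WT cells (n = 3 each). In TNRC6A-/- cells against WT no member rose and 1 fell, CA9 with 1 read over 3 libraries against 69 reads, where 3.09% of all genes rose and 1.66% fell. That call was lost without any 1 of the TNRC6A-/- libraries, and without WT replicate 3, which held 56 of the 69 reads, its adjusted p was 0.107, and SLC2A1 was called instead with 1.29 (adjusted p = 0.018). In TNRC6B-/- cells against WT, with or without WT replicate 3, 0 members were called by edgeR. With all libraries 0 were called by DESeq2 and by voom, and 4 had an unadjusted p under 0.05, where 0.215% of all genes rose and 0.207% fell. SLC2A3 had 3.95, 5.28 and 10.1 CPM in TNRC6B-/- cells and 31.0, 27.0 and 19.1 CPM in TNRC6A-/- cells, against 9.23, 14.0 and 28.1 CPM in WT cells, and each knockout overlapped with WT. Its log2 fold changes of -1.42 ± 0.43 and 0.58 ± 0.41 had edgeR adjusted p of 0.24 and 0.47.

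In the single knockouts SLC2A1 lay between 294 and 322 CPM in TNRC6A-/- cells and between 119.5 and 281 CPM in TNRC6B-/- cells, against 125 to 342 CPM in WT cells. LDHA lay between 501.5 and 564 CPM in TNRC6A-/- cells and between 500.2 and 535 CPM in TNRC6B-/- cells, against 316 to 1263 CPM in WT cells. All of these groups overlapped with WT. HK2 had 20.2, 44.1 and 56.8 CPM in TNRC6B-/- cells against 60.7, 74.2 and 147.6 CPM in WT cells, and in TNRC6A-/- cells PDK1 (19.9 to 26.8 CPM) and ANKRD37 (1.36 to 1.53 CPM) lay below every WT library (at least 31.7 and 2.70 CPM). None of these 3 differences passed the test (log2 -1.22, -0.93 and -1.76). The median of the 34 members was -0.16 in TNRC6A-/- and -0.14 in TNRC6B-/- cells, and 0.28 in each without WT replicate 3. PKM lay between 1448 and 1581 CPM in TNRC6A-/- cells and between 1194 and 1335 CPM in TNRC6B-/- cells, against 856 to 1524 CPM in WT cells, and HIF1A between 198 and 210.3 CPM and between 183.3 and 269 CPM, against 171 to 206 CPM. VEGFA lay between 65.4 and 86.8 CPM in TNRC6A-/- cells and between 46.7 and 186 CPM in TNRC6B-/- cells. CA9 reached 1.19, 1.66 and 3.87 CPM in TNRC6B-/- cells, against 0.157, 0.257 and 1.69 CPM in WT cells, and was not called.

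In TNRC6AB-/- cells against WT, 3 members rose and 5 fell, where 11.1% of all genes rose and 7.44% fell. SLC2A3 had 57.7, 69.9 and 132 CPM in TNRC6AB-/- cells against 9.23, 14.0 and 28.1 CPM in WT cells, and rose by 2.34 ± 0.43 (edgeR adjusted p = 0.0017). HK2 had 6.36, 5.95 and 21.6 CPM in TNRC6AB-/- cells against 60.7, 74.2 and 147.6 CPM in WT cells, and fell by 3.06 ± 0.51. Even the highest TNRC6AB-/- library of HK2 lay below the lowest WT library. SLC2A1 had 351, 336 and 396 CPM in TNRC6AB-/- cells against 125, 128 and 342 CPM in WT cells, with an overlap. PKM rose by 0.75 ± 0.18, with 1713, 1945 and 2203 CPM against 1099, 856 and 1524 CPM, and HIF1A by 0.60 ± 0.14. VEGFA (-1.94), PDK1 (-1.24), EPAS1 (-0.90) and CA9 fell. VEGFA had 26.1, 28.5 and 37.4 CPM in TNRC6AB-/- cells against 81.8, 201.6 and 70.0 CPM in WT cells.

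Without WT replicate 3, 10 members rose and 3 fell in this comparison, where 2513 of all genes tested rose and 1574 fell. The median of the 34 members was then 0.31, against -0.16 with all libraries. With TNRC6AB-/- replicate 3 left out instead, this median moved the other way, to -0.37. Without WT replicate 3, SLC2A3 (2.90), PKM (0.999), HIF1A (0.55), HK2 (-2.58), VEGFA (-2.21) and PDK1 (-0.84) were still called in the same direction, and CA9 and EPAS1 were not. SLC2A1 was then called with 1.51 (edgeR adjusted p = 0.002), against 0.86 (adjusted p = 0.10) with all libraries. ALDOC, ENO2, PFKFB4, SLC16A3, KDM3A and EGLN1 were then called too, all as rises. All of these but SLC2A1 and SLC16A3 fell in transfected TNRC6AB-/- cells against WT siGL2. Without TNRC6AB-/- replicate 2, 5 members were called, where 1691 of all genes tested rose and 895 fell. On the TPM scale 1 rose, SLC2A3, and 5 fell, where 990 of all genes tested rose and 1330 fell. LDHA (-0.32), ENO1 (-0.48), GPI (-0.82) and 10 further enzymes were not called with all libraries. The interaction of TNRC6A and TNRC6B loss, which asks whether losing both departs from the sum of the single losses, was called for SLC2A3 alone (3.18 ± 0.6, edgeR adjusted p = 0.011), where 1.1% of all genes were called upward and 1.36% downward. Without WT replicate 3 SLC2A3 was still the 1 member called, with 2.62 (adjusted p = 0.0249), and the median of the 34 members was -0.24, against 0.21 with all libraries.

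Transfection with the control duplex came with higher members in WT cells. In WT siGL2 cells against WT 15 members rose and none fell, where 16.4% of all genes rose and 8.41% fell. ANKRD37 had 13.5, 14.1 and 12.2 CPM in WT siGL2 cells against 2.70, 2.76 and 9.48 CPM in WT cells, and rose by 1.41 ± 0.42. SLC2A3 rose by 1.28 ± 0.33, and HK1 by 0.63 ± 0.16. Single libraries move this count. Without WT replicate 3, 29 members rose and 1, VEGFA, fell, where 4622 of all genes tested rose and 2546 fell. The count was 2 without WT replicate 2, where 2050 of all genes tested rose and 650 fell. It was 5 rises and 1 fall without WT replicate 1, where 3360 of all genes tested rose and 1671 fell. It was 4 without WT siGL2 replicate 1 or 2, where 1893 or 2106 of all genes tested rose and 748 or 823 fell. In a fit of these 6 libraries alone it was 0, where 181 of all genes tested rose and 163 fell. Library totals gave 7 rises and 1 fall, and the TPM scale 2 and 2, with the median of all genes shifted by -0.22 and -0.20. Of all genes tested, 1766 rose and 3741 fell with library totals, and 251 rose and 3575 fell on the TPM scale. Transfection, time and culture cannot be told apart here.

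In TNRC6AB-/- cells the same step moved few members. In TNRC6AB-/- siGL2 cells against TNRC6AB-/- 3 members rose and 2 fell, where 9.74% of all genes rose and 10.4% fell. SLC2A3 (1.81 ± 0.32), HK2 (1.70 ± 0.39) and ADM (1.002 ± 0.235) rose, and ALDOC (-1.37 ± 0.43) and PKM (-0.46 ± 0.15) fell. The falls of ALDOC and PKM were lost without TNRC6AB-/- siGL2 replicate 2 or 3, and neither is called on the TPM scale, where 5 rose and none fell. Library totals gave 4 and 4. Of all genes tested, 2190 rose and 1061 fell on the TPM scale, and 2635 rose and 2935 fell with library totals. The effect of transfection differed between genotypes in 3 members, ALDOC (-2.37), PFKFB4 (-1.81) and PKM (-0.86), each more negative in TNRC6AB-/- cells, where 2.22% of all genes were called upward and 6.5% downward. Without WT replicate 3, 25 members were called, all downward, where 828 of all genes tested were called upward and 2249 downward. Library totals gave 2 upward and 3 downward, where 1497 and 1106 of all genes tested were called so. The TPM scale gave 4 and 1, where 2224 and 223 of all genes tested were called so.

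Exons and transcripts were read within genes, which leaves the scale of libraries aside. PKM has a pair of mutually exclusive exons of equal length, at chr15:72203022-72203188 for PKM1 and chr15:72202454-72202620 for PKM2, the form typical of proliferating cells. PKM1 made up 10.3, 10.9 and 10.6% of the TPM in transcripts with either exon in TNRC6AB-/- cells, against 8.95, 7.22 and 8.96% in WT cells, a difference of 2.23 points (two-sided exact permutation test, p = 0.1, the smallest that 3 against 3 allows). In transfected cells it was 9.87 ± 0.45% in TNRC6AB-/- siTNRC6C and 10.1 ± 0.33% in TNRC6AB-/- siGL2, against 10.6 ± 0.31% in WT siGL2 cells (SD, n = 3 each; exact p = 0.1 and 0.2), and the libraries of the siGL2 groups overlapped. WT siTNRC6C libraries had 9.44, 8.26 and 8.75%, below 10.0 and 10.2% in TNRC6AB-/- siTNRC6C replicates 1 and 3 and overlapping with 9.35% in replicate 2, so no single direction held in transfected cells. PKM2 was thus the main form in every library. The HIF1A transcript with the highest mean level, HIF1A-202, held 35.1 ± 2.81% of HIF1A TPM in TNRC6AB-/- siTNRC6C, 37.3 ± 3.39% in TNRC6AB-/- siGL2 and 38.5 ± 2.42% in WT siGL2 cells. For VEGFA the corresponding transcript, VEGFA-205, held 30.1 ± 4.23%, 29.1 ± 4.08% and 35.5 ± 1.69% in the same groups (SD, n = 3 each). These shares were not tested.

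Other genes of these pathways were read from fixed lists. Of 28 other HIF targets tested, 4 rose and 20 fell in TNRC6AB-/- siTNRC6C cells against WT siGL2, with a median of -0.88, and 2 rose and 20 fell in TNRC6AB-/- siGL2 cells. Of all genes tested, 24.7% rose and 31.8% fell in the first comparison and 15.7% and 20.6% in the second, and the counts of the lists below stand against the same shares. DDIT4, an inhibitor of mTORC1, fell by 3.69 and 2.84 on the log2 scale, and P4HA1, a collagen prolyl hydroxylase, by 2.27 and 1.74. In WT siTNRC6C cells against WT siGL2, 17 of the 28 fell and none rose, where 5.89% of all genes fell and 6.43% rose. DDIT4 fell by 1.40 there. Among 14 regulators of the HIF pathway 7 rose and 6 fell in TNRC6AB-/- siTNRC6C cells, where 24.7% of all genes rose and 31.8% fell, and HIF1AN, the asparaginyl hydroxylase that silences HIF, rose by 0.96 and 0.74 in the 2 knockout groups.

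Of 24 other enzymes of glycolysis and pyruvate use tested, 1 rose and 16 fell in TNRC6AB-/- siTNRC6C cells, and 1 rose and 7 fell in TNRC6AB-/- siGL2 cells, the last not far from the 20.6% of all genes that fell there. TIGAR, a phosphatase that slows glycolysis, was the 1 that rose, by 1.04 and 0.99, and PDK3 fell by 1.72 and 1.26. GAPDH, often used as a reference gene, had 1071, 1066 and 1112 CPM in TNRC6AB-/- siTNRC6C cells and averaged 1412 CPM in TNRC6AB-/- siGL2 cells, against 2474 CPM in WT siGL2 cells, falls of 1.19 and 0.81. Of 7 pentose phosphate enzymes 5 fell in TNRC6AB-/- siTNRC6C cells, led by the transketolase TKT with -0.97. Among 11 other sugar carriers tested, 6 rose and 3 fell there, where 24.7% of all genes rose and 31.8% fell. SLC2A8 rose by 1.76 and SLC2A13 fell by 0.74. SLC2A14 was called as a rise of 2.70, on few reads that could be confused with those of SLC2A3. ARRDC4, an arrestin gene induced by glucose, fell by 2.55 and 2.22 in the knockout groups and by 0.94 in WT siTNRC6C cells.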

How the data were processed

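RNA from 24 HCT116 libraries was sequenced with a strand-specific whole-transcriptome kit, and the authors deposited, per library, the estimated counts and TPM of each transcript from Salmon 0.11.0, with STAR 2.5.3a and hg38 also named in the submitters' processing notes. The deposited TPM are scaled by transcript length and sum to the same total in each library. Of 199612 transcripts, 199368 were matched to GENCODE 29, and the 244 unmatched held at most 0.0544% of a library. Estimated counts were summed per gene and rounded to whole numbers. Genes were filtered with filterByExpr, scaled by TMM over all 24 libraries and tested with edgeR 4.0.16 (quasi-likelihood F test, R 4.3.3), the 12 untransfected and 12 transfected libraries in a fit each and all 24 for transfected against untransfected. The Benjamini-Hochberg adjustment ran over all 24153 genes tested, and a gene was called at 0.05. CPM are TMM-scaled and are not per length, so levels are compared between groups and not between genes. TPM were tested as log2(TPM + 1) with limma 3.58.1. Alternatives were DESeq2 1.42.0, voom, other scalings, filters and fits, and leaving out each library. The test was checked on simulated counts.

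Members and companion lists were chosen with earlier results of these data known. SLC2A1, SLC2A3, PKM, LDHA, HIF1A, CA9 and VEGFA are given in every group, and in each comparison up to 5 members with the largest rise and up to 5 with the largest fall among those called, without overlap and with at least 5 CPM in a group. Of each companion list, up to 3 genes with the smallest adjusted p could be named. TIGAR, TKT, HIF1AN and GAPDH, and the members given beyond the rule, were chosen after their values were seen. RNA was extracted with Trizol per the labels, while the study's methods name another kit. A companion gene and a sequence stretch that the rules above would give are not reported here.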

Additional observations from a re-analysis of the deposited data

Results flagged for a closer look

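Differences of a change between groups that passed edgeR's test (adjusted p below 0.05) are given as values on the log2 scale. For SLC2A3, the change in TNRC6AB-/- cells exceeded the sum of those in TNRC6A-/- and TNRC6B-/- cells by 3.18, and the effect of siTNRC6C in TNRC6AB-/- cells exceeded that in WT cells by 2.33. The effect of siTNRC6C was also more positive in TNRC6AB-/- cells for NDRG1 (1.29), ANKRD37 (1.02), ENO2 (0.78), BNIP3L (0.63), PFKFB4 (0.45), KDM3A (0.41), PDK1 (0.37) and VEGFA (0.25). It was more negative there for HK2 (-0.84), TPI1 (-0.56), LDHA (-0.55), ALDOC (-0.53), PFKM (-0.44), PGAM1 (-0.40) and PFKFB3 (-0.40). The change with siGL2 transfection was more negative in TNRC6AB-/- than in WT cells for ALDOC (-2.37), PFKFB4 (-1.81) and PKM (-0.86).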

How the results depend on the processing

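The counts of members called in TNRC6AB-/- siTNRC6C (32) and TNRC6AB-/- siGL2 cells (31) against WT siGL2 stayed within 1.5 times in every alternative run. Of 45 results on named members, chosen by the rule on size and overlap, 23 kept their call in every alternative, none reversed, and 51 of 712 alternatives lost a call. Among the members outside that rule, ERO1A and EPAS1 turned from called falls to called rises on the TPM scale in TNRC6AB-/- siTNRC6C cells against WT siGL2 (ERO1A with 0.28 in place of -0.295, EPAS1 with 0.37 in place of -0.23). Against 1 member called in TNRC6A-/- cells, a fit of all 24 libraries gave 3, the compared libraries alone 0, DESeq2 2, voom 2, no filter 5, length-scaled counts 0 and TPM 0. Against 0 in TNRC6B-/- cells, the fit of all 24 gave 1 and no filter 2. No filter gave 13 in TNRC6AB-/- cells (8), 10 for TNRC6AB-/- siGL2 against TNRC6AB-/- (5), 2 for the interaction of TNRC6A and TNRC6B loss (1) and 16 for that of transfection and genotype (3). A further limit of 0.6 on the log2 fold change left 6 members for WT siTNRC6C (13), 6 for TNRC6AB-/- siTNRC6C against TNRC6AB-/- siGL2 (19) and 6 for the interaction of siTNRC6C and genotype (16), where the fit of all 24 left 0, 2 and 1. Library totals gave 23 for WT siTNRC6C, 8 for WT siGL2 against WT (15), 8 for TNRC6AB-/- siGL2 against TNRC6AB-/- and 5 for transfection and genotype, and TPM gave 4 for WT siGL2 against WT and 5 for transfection and genotype. The compared libraries alone gave 0, 10 and 0 for WT siGL2 against WT, TNRC6AB-/- siGL2 against TNRC6AB-/- and transfection and genotype, voom 8 and 11 for the last 2 and DESeq2 5 for the last. The causes were not tested.

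With a single library left out, counts ranged from 0 to 1 in TNRC6A-/- cells, 5 to 13 in TNRC6AB-/- cells, 11 to 23 in WT siTNRC6C cells, 2 to 30 for WT siGL2 against WT, 3 to 7 for TNRC6AB-/- siGL2 against TNRC6AB-/-, 1 to 3 for the interaction of TNRC6A and TNRC6B loss and 2 to 25 for transfection and genotype. The last was 25 without WT replicate 3, 9 without TNRC6AB-/- replicate 1 and 7 without WT siGL2 replicate 3, and the interaction of TNRC6A and TNRC6B loss was 3 without TNRC6B-/- replicate 1. The carriers minus enzymes difference in TNRC6AB-/- cells (1.98) was 1.29 with SLC2A1 alone and 2.66 with SLC2A3 alone. In TNRC6AB-/- siGL2 cells (2.39) it was 2.24 on TPM, 0.958 with SLC2A1 alone and 3.82 with SLC2A3 alone, and in TNRC6AB-/- siTNRC6C cells (3.78) 3.59, 1.70 and 5.87. Replicate numbers are not stated to pair cultures. Deviations from group means correlated between same-numbered libraries from -0.322 to 0.354, and between differently numbered ones up to 0.321. Between TNRC6AB-/- siGL2 and WT siGL2 they correlated by 0.219, 0.005 and 0.354 for replicates 1, 2 and 3. A shared replicate effect in these groups was not tested beyond the block below. With the replicate block 3 members were called in TNRC6A-/- cells, 1 in TNRC6B-/- cells and 5 for transfection and genotype, and the other counts stayed within 1.5 times.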
